A study of Homo sapiens with 6 samples.

Results

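RB1 and RBL2 encode pocket proteins, and CDC25A encodes a phosphatase that acts at the passage from G1 into S phase. These 3 genes, of 1458 with a name in the authors' deposited comparison, were followed in HCT116 cells after depletion of the nuclear receptor ERRα. They were chosen by the fold change and p-value of this same contrast, since the authors' deposited table lists 4 of their probe sets as different: 1 of RB1, 2 of RBL2 and 1 of CDC25A. Each listed probe set lies in an unbroken run of consecutive probe set identifiers, 71 probe sets in all, with 30 in the RB1 run, 23 in the RBL2 run and 18 in the CDC25A run. An unlisted probe set of a run carries no name in the files, and whether it measures the gene was not tested.

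HCT116 is an established human colon carcinoma line. The 3 shERRα arrays hold total RNA from cells infected with a lentivirus that carries a short hairpin RNA (shRNA) against ERRα, and the 3 shscrambled arrays RNA from cells infected with a scrambled shRNA. Both groups share the cell line, 48 h of infection, 48 h of puromycin and a medium with 10% serum. The labels call the 3 arrays of a group biological replicates and do not say whether they came from separate infections, and the number of hairpins is not given in the sources used here, so effects of the hairpin itself and of ERRα loss cannot be told apart. ESRRA encodes ERRα and was read as the median of 2 listed probe sets. It was at 4.86, 5.10 and 5.28 log2 units on the shscrambled arrays and at 2.29, 2.60 and 2.23 on the shERRα arrays. These 2 were listed from this same contrast, and their shERRα mean of 2.38 lay under 2.41, the limit used below for near background. The ESRRA run of 6 probe sets differed by -1.84 log2 units, against -2.71 at the listed ones. Values were read from digit strings whose decimal marks were lost, for 256180 usable probe sets, with array medians between 4.28 and 4.43 log2 units. shERRα replicate 1 stood apart, with correlations of 0.867 to 0.877 to the other 5 arrays, against 0.933 to 0.947 among those. Of 12 epithelial markers of colon carcinoma, CDH1 alone has a named probe set (7.69 ± 0.03 in shscrambled and 5.63 ± 0.55 in shERRα, SD, n = 3), and the other 11 are not analysed here.

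Pocket proteins bind E2F transcription factors and hold back the genes of S phase. Cyclin-dependent kinases phosphorylate them in G1, which frees E2F. RB1 binds mainly activating E2Fs, while RBL2, also called p130, is the main pocket protein of resting cells and, with the MuvB proteins, forms the DREAM repressor complex. CDC25A removes inhibitory phosphates from cyclin-dependent kinases and is itself a known E2F target whose promoter is repressed by pocket proteins.

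Promoter windows of RBL2 and CDC25A are shown because E2F and DREAM act on such windows, through E2F sites and the cell cycle homology region (CHR). Each holds 250 bases before the gene's start and 50 from it on, from RefSeq on build GRCh38.p14, written 5′ to 3′ on the gene's strand, with motif matches in capitals. The RBL2 window is chr16:53434221-53434520 on the plus strand and the CDC25A window is chr3:48188368-48188667 on the minus strand. The window given for RB1, on chromosome 13, does not begin at the start of the gene in the same source and is not shown.
RBL2 promoter: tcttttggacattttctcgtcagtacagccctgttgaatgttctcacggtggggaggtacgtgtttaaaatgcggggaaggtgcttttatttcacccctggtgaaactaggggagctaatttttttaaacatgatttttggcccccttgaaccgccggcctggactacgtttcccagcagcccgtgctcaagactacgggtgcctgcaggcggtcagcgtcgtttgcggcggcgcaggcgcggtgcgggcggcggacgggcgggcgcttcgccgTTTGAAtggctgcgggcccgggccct
CDC25A promoter: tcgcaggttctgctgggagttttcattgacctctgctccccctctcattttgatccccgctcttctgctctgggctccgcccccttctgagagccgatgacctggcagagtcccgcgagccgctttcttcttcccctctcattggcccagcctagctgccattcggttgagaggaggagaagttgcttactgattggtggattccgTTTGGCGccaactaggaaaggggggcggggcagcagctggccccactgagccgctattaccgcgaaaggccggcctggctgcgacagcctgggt
Both strands were searched for the element AAGGTCA, known to be bound by ERR receptors, the E2F motifs TTTGGCG and TTTCCCG, and the CHR motif TTTGAA, none of which overlapped another match. The CDC25A window held TTTGGCG, beginning 44 bases before the gene's start, a motif present in 1.93% of 24900 windows of the same length. The RBL2 window held TTTGAA, 24 bases after the start, a motif present in 15.7% of those windows. Neither window held AAGGTCA (4.04% of all windows) or TTTCCCG (4.32%). A match describes letters only and says nothing about binding in these cells.

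The authors' deposited table chose the 4 listed probe sets, so their values are a description without a test. For RB1, probe set 7969038 was at 9.74, 9.76 and 10.23 log2 units on the shscrambled arrays and at 8.998, 8.97 and 8.62 on the shERRα arrays. The groups did not overlap, and this was the brightest probe set of the RB1 run. The difference was -1.05 log2 units (SE 0.29), 2.07-fold lower in shERRα (9.91 ± 0.28 against 8.86 ± 0.21, SD, n = 3). The authors' deposited table gives a ratio of 0.483 at a p-value of 0.00662. In RNA of a whole culture, fewer cells that express a gene and less RNA per cell cannot be told apart.

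For RBL2, probe set 7995651 was at 4.90, 4.76 and 5.08 log2 units on the shscrambled arrays and at 1.05, 1.58 and 2.47 on the shERRα arrays. All shERRα arrays were low and scattered more widely than the shscrambled arrays. The difference was -3.21 log2 units (SE 0.40), and the shERRα mean of 1.70 was near background, which is taken here as less than 2.41 log2 units, the level under which 25% of probe set means lie, so the 9.27-fold difference is not exact. The other listed probe set of RBL2, 7995633, was at 5.55, 5.69 and 5.58 in shscrambled and at 2.87, 3.97 and 3.97 in shERRα. Again the groups did not overlap, with a difference of -2.01 log2 units (SE 0.37), 4.03-fold lower in shERRα.

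For CDC25A, probe set 8086885 was at 5.57, 5.51 and 4.94 log2 units on the shscrambled arrays and at 6.999, 6.61 and 7.32 on the shERRα arrays. Every shERRα array was above every shscrambled array. The difference was 1.64 log2 units (SE 0.33), 3.11-fold higher in shERRα (5.34 ± 0.35 against 6.98 ± 0.36, SD, n = 3).

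**Figure D1:**
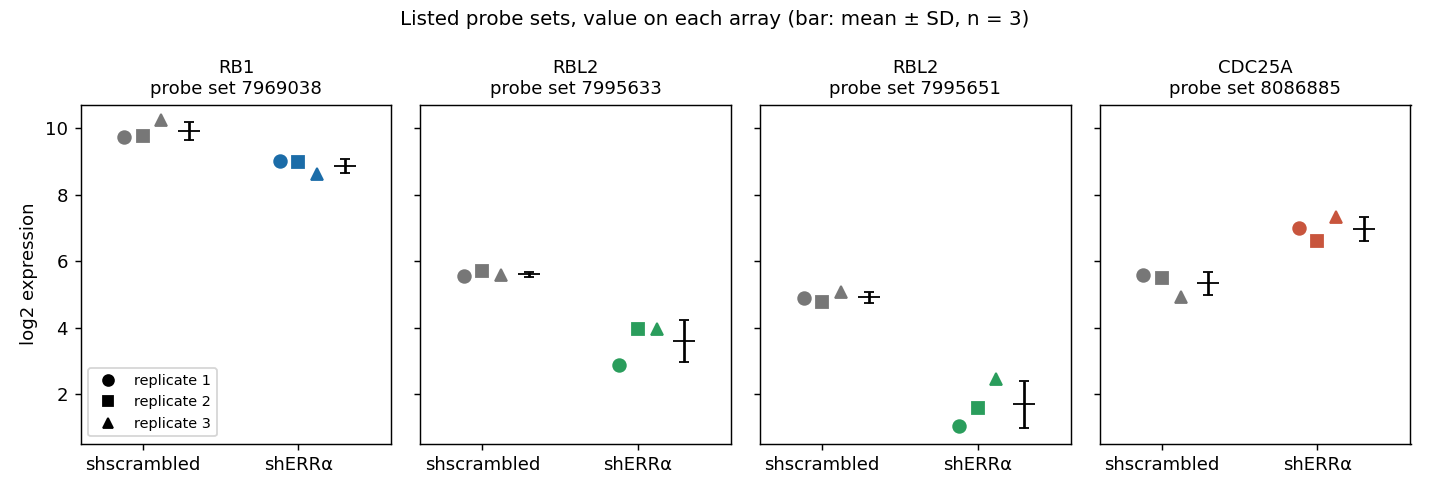
Log2 expression (vertical axis) of the 4 listed probe sets on each array, by group (horizontal axis), with 1 marker shape per replicate number and a bar for the mean ± SD of 3 arrays. In each panel the groups do not overlap, lower in shERRα for RB1 and RBL2 and higher for CDC25A, as the choice of these probe sets fixes.

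The listing rests on an unadjusted p under 0.01 and a 2-fold difference, a rule that took 0.557% of all probe sets as lower and 0.271% as higher. Just inside it was RB1 probe set 7969038, with p = 0.00662 in the authors' deposited table. Just outside was another probe set of the RB1 run, 7969045, at a difference of -0.94 log2 units (1.92-fold lower). For RBL2, probe set 7995644 reached 2.00-fold lower and 7995636 reached 5.19-fold lower without meeting the p limit. In the CDC25A run, probe sets 8086894 (1.34 log2 units in shscrambled, near background, and 3.31 in shERRα) and 8086896 (2.62-fold higher) stayed outside in the same way. In limma, fitted on all 256180 probe sets, 0 reached an adjusted p under 0.05 (0.00% in either direction), against 6961 higher and 11576 lower at an unadjusted p under 0.05.

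The rest of the RB1 run lay mostly on the side of its listed probe set. Of its 30 probe sets, 27 had a lower mean in shERRα (26 of the 29 unlisted), where 50.2% of all probe sets did. In 15 (14 of the unlisted) all shERRα arrays were below all shscrambled arrays, as in 8.37% of all probe sets. The rule used this contrast, so nothing is read from these shares. The differences ran from -1.88 to 0.55 log2 units with a median of -0.91. At least 2-fold lower were 14 of the 30 (13 of the 29 unlisted), against 6.85% of all probe sets. Over the 29 unlisted probe sets the median was -0.88 log2 units. The median difference over all probe sets of the table was 0.00.

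The RB1 probe sets differed less from each other where the signal was strong. The listed probe set was among the 25 above the median level of the table (4.29 log2 units). Of these 25, 23 were lower in shERRα, where 54.7% of all such probe sets were. In 14 of them the groups did not overlap, where 11.9% did. All 10 of the brightest were lower in shERRα, between -1.05 and -0.32 log2 units, and in 7 of them the groups did not overlap. The listed probe set is 1 of these 7 and holds the -1.05, and the widest unlisted one of the 10 was 7969045 at -0.94. In the 10 dimmest, 9 were lower, 2 had groups that did not overlap, and the range widened to -1.88 to 0.12. Among the bright ones, probe set 7969021 was at 9.36, 9.21 and 9.89 in shscrambled and at 8.60, 8.77 and 8.74 in shERRα. Probe set 7969031 was at 8.64, 8.76 and 9.32 against 7.94, 8.28 and 7.94. Both had groups that did not overlap and differences smaller than 2-fold, at -0.79 and -0.85 log2 units.

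Several dim RB1 probe sets were lowest on shERRα replicate 1. Probe set 7969025, with the widest difference of the run, was at 5.07, 5.37 and 6.27 in shscrambled and at 0.89, 4.78 and 5.38 in shERRα. Its difference of -1.88 log2 units was -0.49 without that replicate. Across the run, shERRα replicate 1 held the lowest of the 6 values in 16 of 30 probe sets, and shscrambled replicate 3 the highest in 23. Without shERRα replicate 1, 27 of the 30 were still lower (26 of the 29 unlisted), where 51.2% of all probe sets were. The median difference was then -0.71. The 3 RB1 probe sets that were higher in shERRα, 7969019, 7969028 and 7969043, had differences of 0.02, 0.12 and 0.55 log2 units, each with overlapping groups.

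In the RBL2 run, 20 of 23 probe sets had a lower mean in shERRα and 11 had groups that did not overlap. All probe sets of the table gave the same 50.2% and 8.37%. The differences ran from -3.21 to 0.81 log2 units with a median of -1.001, and 12 of the 23 were at least 2-fold lower, against 6.85% of all probe sets. These counts include the 2 listed probe sets, whose direction and size the rule fixed. Of the 21 unlisted ones, 18 were lower, 9 had groups that did not overlap and 10 were at least 2-fold lower. Besides the 2 listed probe sets, 7995636 was the widest of the run at -2.38, and over the 21 unlisted ones the median was -0.97. The 3 probe sets with a higher mean were among the first 4 identifiers of the run, 7995632, 7995634 and 7995635, at 0.14, 0.08 and 0.81 log2 units. All 12 probe sets of the last stretch of identifiers, from 7995643 on and with listed 7995651 among them, were lower.

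The 2 brightest RBL2 probe sets had similar differences. Probe set 7995642 was at 8.89, 9.19 and 8.62 in shscrambled and at 7.93, 8.27 and 7.40 in shERRα, a difference of -1.03 log2 units (SE 0.33). Probe set 7995644 was at 8.50, 8.55 and 8.22 against 7.78, 7.57 and 6.91, a difference of -1.001 (SE 0.32). In both, the groups did not overlap. Of the 15 RBL2 probe sets above the median level of the table, 13 were lower, where 54.7% of all such probe sets were. In 7 of these 15 the groups did not overlap, where 11.9% did. Listed probe set 7995633 is among the 15, the 13 and the 7. All 7 of the brightest were lower, between -1.03 and -0.35 log2 units, smaller than at the 2 listed probe sets. In 4 of these 7 the groups did not overlap. Among all, shERRα replicate 3 held the lowest value in 11 of 23 probe sets and shERRα replicate 1 in 9. Without shERRα replicate 1, 22 of 23 were lower (20 of the 21 unlisted), where 51.2% of all probe sets were. Then 13, the 2 listed ones included, had groups that did not overlap, where 13.4% of all probe sets did.

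In the CDC25A run, 16 of 18 probe sets had a higher mean in shERRα, where 49.8% of all probe sets did, and 7 had all shERRα arrays above all shscrambled arrays, where 5.69% did. The differences ran from -0.81 to 1.97 log2 units with a median of 0.65, and 6 were at least 2-fold higher, against 3.72% of all probe sets. These counts include the listed probe set, whose direction and size the rule fixed. Of the 17 unlisted probe sets, 15 were higher, 6 had groups that did not overlap and 5 were at least 2-fold higher. Their median difference was 0.61. Of the 11 above the median level of the table, the listed one included, 10 were higher, where 45.3% of all such probe sets were. In 6 of the 11 the groups did not overlap, where 5.91% did. In the 6 brightest, all were higher, between 0.60 and 1.64 log2 units, and 5 had groups that did not overlap. The listed probe set is 1 of these 5 and holds the 1.64.

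Probe set 8086896 of the CDC25A run was at 5.36, 6.43 and 6.23 in shscrambled and at 7.23, 7.32 and 7.64 in shERRα, a difference of 1.39 log2 units (SE 0.36). Probe set 8086895 was at 4.41, 4.16 and 4.95 against 6.34, 5.28 and 6.21, a difference of 1.44 (SE 0.39). Probe set 8086889 was at 6.02, 6.49 and 6.60 against 7.48, 6.88 and 6.95, a difference of 0.74 (SE 0.31). In all 3 the shERRα arrays were above the shscrambled arrays. The shERRα arrays were uneven: replicate 3 was above the shscrambled mean in 18 of 18 probe sets and the highest of all arrays in 15, replicate 2 was above that mean in 14 and replicate 1 in 11. Without shERRα replicate 1, 17 of 18 were higher (16 of the 17 unlisted), where 48.8% of all probe sets were. Then 13, the listed one included, had groups that did not overlap, where 10.8% did, and the median difference was 1.04.

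**Figure D2:**
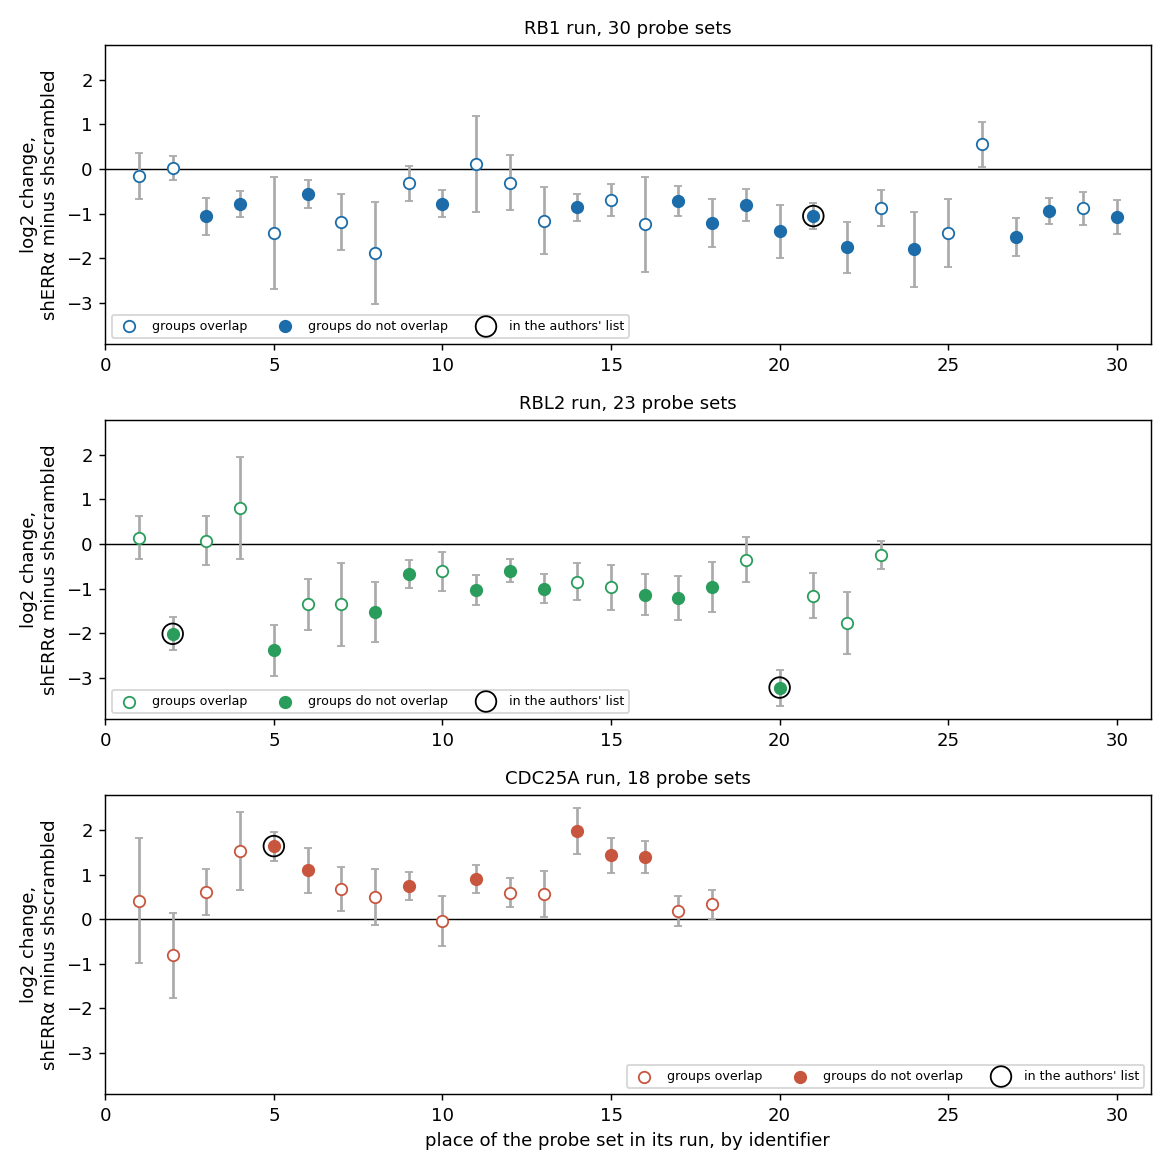
Difference in mean log2 expression, shERRα minus shscrambled (vertical axis, with SE from limma), for each probe set of the 3 runs in the order of their identifiers (horizontal axis). Filled points are probe sets whose groups do not overlap (15, 11 and 7), and rings mark the 4 in the authors' list. Most points of the RB1 and RBL2 runs lie under 0 and most of the CDC25A run above it.

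**Figure D3:**
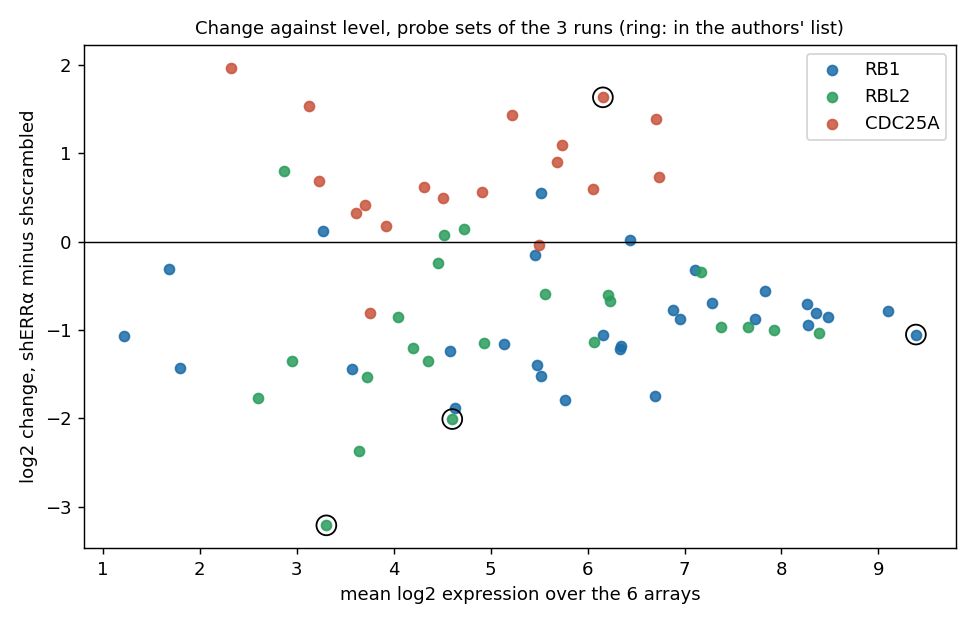
Difference in log2 expression, shERRα minus shscrambled (vertical axis), against the mean level over 6 arrays (horizontal axis) for the 71 probe sets. The 10 brightest RB1 points, the listed one among them, lie between -1.05 and -0.32. The 7 brightest RBL2 points, none of them listed, lie between -1.03 and -0.35, while all points together spread from -3.21 to 1.97.

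Each run as a whole was summarised on each array by its median. The RB1 run was at 6.46, 6.58 and 7.47 log2 units on the shscrambled arrays and at 5.71, 6.02 and 6.39 on the shERRα arrays. The groups did not overlap, but the highest shERRα array lay close under the lowest shscrambled array. The difference was -0.80 log2 units (SE 0.31), 57.4% of the control level. It was -0.48 without shscrambled replicate 3, the array with the highest RB1 values.

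The RBL2 run was at 5.08, 5.69 and 4.94 log2 units in shscrambled and at 4.40, 4.94 and 4.16 in shERRα. The groups touched, since shERRα replicate 2 and shscrambled replicate 3 were at the same value to the second decimal. The difference was -0.74 log2 units (SE 0.29), 60.1% of the control level. It depended on the summary: the mean over the run gave -1.01, and the median per array without the listed probe sets gave -0.40, although the median of those same 21 differences was -0.97.

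The CDC25A run was at 4.38, 4.22 and 4.72 log2 units in shscrambled and at 4.22, 5.31 and 5.88 in shERRα. The groups overlapped, because shERRα replicate 1 lay at the level of the controls while the other shERRα arrays were above them. The difference was 0.70 log2 units (SE 0.38), 1.62-fold higher, and 1.16 without shERRα replicate 1 and 0.32 without shERRα replicate 3. No overlap was found in 10.5% of all 19182 runs on the lower side and 6.66% on the higher side. No run passed an adjusted p of 0.05 in limma (0.00% in either direction), with 630 higher and 1410 lower at an unadjusted p under 0.05. A difference as wide in the same direction was found in 3.59% of runs for RB1, 4.58% for RBL2 and 1.79% for CDC25A. These shares cover all runs of at least 3 probe sets and were not matched to the members' lengths of 30, 23 and 18.

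**Figure D4:**
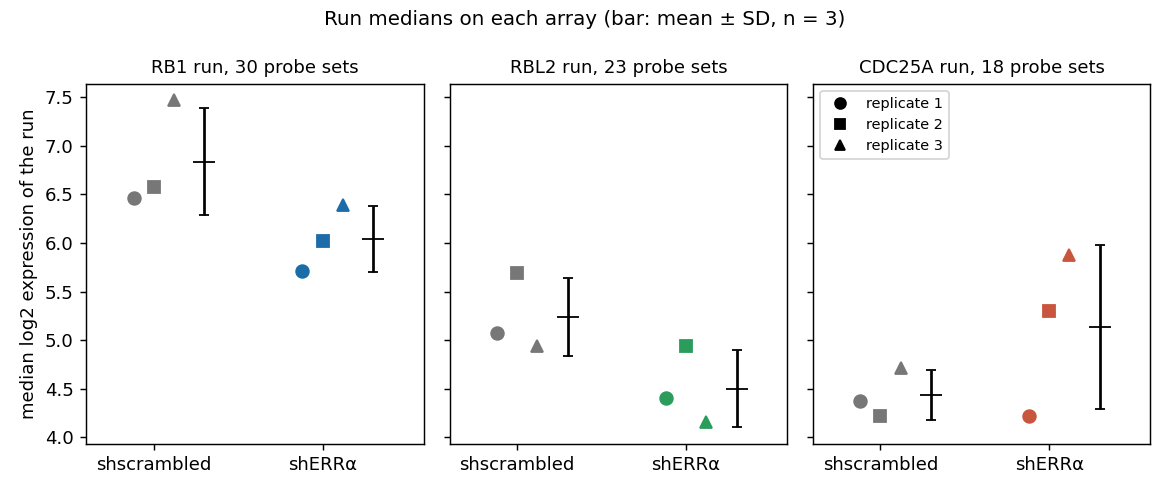
Median log2 expression of each run (vertical axis) on the arrays of each group (horizontal axis), with 1 marker shape per replicate number and a bar for the mean ± SD of 3 arrays. shERRα replicate 1 lies with the shscrambled arrays in the CDC25A run and is the lowest array in the RB1 run.

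**Figure D5:**
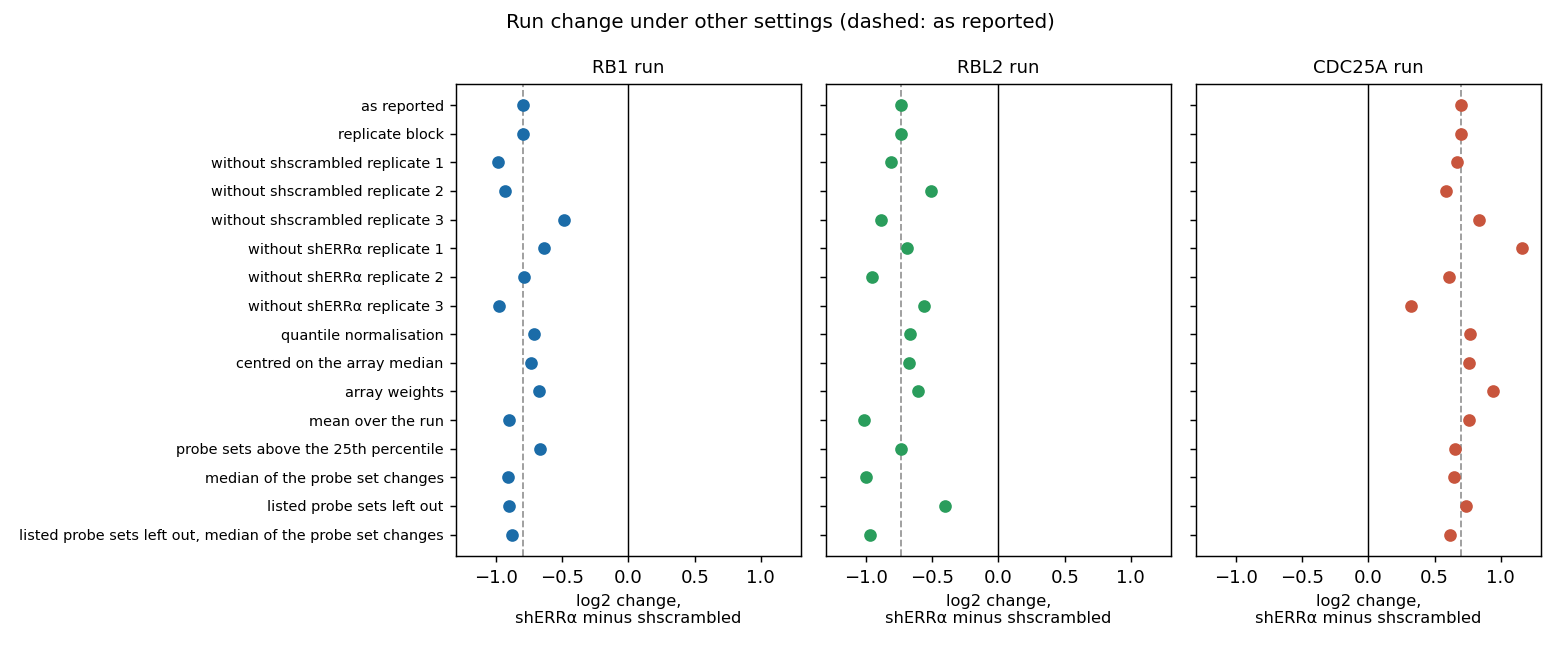
Difference of the run medians, shERRα minus shscrambled in log2 units (horizontal axis), as reported (dashed line) and under each other setting (vertical axis). RB1 stays between -0.99 and -0.48, RBL2 between -1.01 and -0.40 and CDC25A between 0.32 and 1.16.

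Most values of the 3 runs were exact repeats of values elsewhere on the same array. Of all probe sets, 69.2% to 73.2% held such a shared value, depending on the array. In the CDC25A run a value was shared by fewer probe sets than in the RB1 and RBL2 runs. Counting itself, a value was held by a median of 71.0 to 725.0 probe sets of its array in the RB1 run and of 163.0 to 527.0 in the RBL2 run, against 2.0 to 32.0 in the CDC25A run, and the highest of each range was on shERRα replicate 1. In RBL2 probe set 7995633 the values of shERRα replicates 2 and 3 were identical, and the value of replicate 1 was held by 3973 probe sets of that array. In RBL2 probe set 7995651 the shERRα values were held by 5375, 3753 and 1216 probe sets, against 652 to 736 in shscrambled. At the listed RB1 probe set the shERRα values were held by 17 to 31 probe sets, and at the listed CDC25A probe set by that probe set alone. The part of such repeats in the differences was not tested.

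Other genes of the pathway were read from 9 lists of 178 genes, of which 16, the members included, had a listed probe set, 10 higher and 6 lower. All listed genes of the table were 500 higher, 929 lower and 29 in both directions, and at least 1 probe set was listed as lower in 5.12% and as higher in 2.86% of all runs. A gene that is not listed is not shown to be unaffected. Of 11 pocket proteins and cyclin-dependent kinase inhibitors, only RB1 and RBL2 were listed. None of 11 E2F and DP factors and none of 17 G1 cyclins and their kinases was listed.

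Of 23 CDC25 phosphatases and their regulators, 4 were listed. Besides CDC25A these were CHEK2, a checkpoint kinase that marks CDC25A for destruction (2.47 ± 0.04 in shscrambled and 0.94 ± 0.45 in shERRα, SD, n = 3), its activator ATM (1.12 ± 0.21 and 2.88 ± 0.58), and the 14-3-3 protein YWHAB (9.77 ± 0.11 and 8.59 ± 0.35). CHEK2 and ATM were near background in 1 group each, and their runs had median differences of 0.12 and -0.27 log2 units, opposite in sign to the listed probe set. The YWHAB run was at -0.74 log2 units, on the same side as its listed probe set.

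Of 15 genes for the turnover of these proteins and for RB phosphatases, 3 were listed higher and 1 lower. The F-box protein SKP2, which directs p27 to degradation, was at 5.78, 5.95 and 6.09 log2 units in shscrambled and at 6.997, 7.06 and 7.44 in shERRα (2.34-fold higher over 2 probe sets, run 0.68). FBXW7, which directs cyclin E to degradation, was 2.48-fold higher over 2 probe sets (run 0.69), and CCNF, which encodes cyclin F, was 2.00-fold higher at 1 probe set (run 0.78). PPP1CB, a catalytic subunit of the phosphatase that acts on RB, was listed by 1 probe set as 2.76-fold lower, while its run was at 0.06.

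Among 15 corepressors and chromatin partners of RB, HDAC3, a histone deacetylase, was listed over 5 probe sets. It was at 8.87, 9.17 and 9.32 log2 units in shscrambled and at 8.10, 7.81 and 7.99 in shERRα, with no overlap, and its run of 17 probe sets was at -0.98 (SE 0.21). Of 9 MuvB and DREAM genes, MYBL1 was listed higher from a level near background (0.82 ± 0.47 and 3.29 ± 0.79, SD, n = 3), with a run difference of 0.02. Of 47 E2F targets of S phase, RFC2, a clamp loader subunit (3.03-fold higher, run 0.38), and DBF4, the activator of the CDC7 kinase, were listed. DBF4 was near background in both groups (0.88 and 2.21 log2 units). Of 30 DREAM targets of mitosis, UBE2C (2.05-fold higher, run 0.29) and DLGAP5 (1.93 ± 0.70 and 4.07 ± 0.30, SD, n = 3, run 0.91) were listed. DLGAP5 was near background in shscrambled. RFC2, DBF4, UBE2C and DLGAP5 rested on 1 probe set each.

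For each member, the genes with the most similar profile were taken by Pearson correlation over the 6 arrays. Candidates were genes with at least 2 listed probe sets (322, or 321 for RBL2, which is itself among them). A profile was the median of a gene's listed probe sets on each array, so RB1 and CDC25A rest on 1 probe set each. All candidates were listed for a difference on these same arrays, so high correlations are built in and are given as a description. The RB1 profile was closest to GOT1, a transaminase (r = 0.999), FADS1, a fatty acid desaturase (r = 0.995), and PARD6B, a polarity protein (r = 0.981). GOT1 was at 9.09, 9.15 and 9.73 log2 units in shscrambled and at 8.27, 8.21 and 7.71 in shERRα. Its highest value was on shscrambled replicate 3 and its lowest on shERRα replicate 3, as for the listed RB1 probe set. In the RB1 run medians, shERRα replicate 3 was instead the highest shERRα array, at 6.39. The RBL2 profile was closest to RCN2, a calcium-binding protein of the endoplasmic reticulum (r = 0.993), the zinc transporter SLC39A9 (r = 0.991) and VWA8 (r = 0.991). RCN2 was at 5.81, 6.52 and 6.89 in shERRα, in the same order of arrays as the median of the 2 listed RBL2 probe sets. The RBL2 run medians did not have this order, with shERRα replicate 3 the lowest at 4.16. The CDC25A profile was closest to KY (r = 0.990) and the polo-like kinase PLK2 (r = 0.989). PLK2 was at 6.63, 6.62 and 6.42 in shscrambled and at 7.88, 7.62 and 8.26 in shERRα, and KY was near background in shscrambled. The PLK2 run differed by 1.16 log2 units and the KY run by -0.01.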

How the data were processed

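Expression was measured on Affymetrix whole-transcript arrays, 3 shscrambled and 3 shERRα, with groups and replicate numbers as in the titles. The authors normalised the deposited log2 values with RMA, per the submitters' processing notes; its version is not given in the sources used here, nor is the array annotation. Any p-value here covers the spread between these arrays alone, which may be technical, and the number of arrays limits the precision.

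The decimal marks of the value table were lost. A string of 7 digits was given 2 digits before the mark and any other string 1 digit. For 73521 ambiguous values (4.76%) the reading nearer to the probe set's other values was taken, and 1250 undecided probe sets were left out, none of them in the 3 runs. Another 61 probe sets held ambiguous values alone and kept the lower reading. For 12 undecided listed probe sets the reading nearest to the deposited fold change was taken. With this reading, each of the 2122 fold changes in the deposited table was met to within 0.001 log2 units, which is built in for those 12. The authors' deposited table gives a fold change, which is a ratio with shERRα on top, and the p-value of a t-test without adjustment, per the file headers. The deposited values are tested in log2 units, and p under 0.01 with a 2-fold difference selects 2122 probe sets here.

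limma (version 3.58.1, R 4.3.3) was fitted with lmFit and eBayes on all probe sets and on the medians of runs of at least 3 probe sets, with Benjamini-Hochberg adjustment. The code was tested on simulated data. Names come from the authors' table, updated through the RefSeq gene table of GRCh38.p14 (1948 by accession, 103 by symbol, 27 by an older symbol, 11 by the name in the table, 33 unnamed). Named genes were the members, the listed genes of 9 pathway lists and the 3 genes most like each member, of which 1 is not reported here. The members and lists were chosen with earlier results of these data known. Lists are described by counts, because names exist for listed probe sets alone. The protein comparison planned for the members was not run, as no protein sequences were used here. Alternatives were a replicate block, leaving out each array, quantile normalisation, centring, array weights, the mean over a run, a filter on dim probe sets and an equal-variance test. 3 summaries of a run and the counts without shERRα replicate 1 were added after the data were seen.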

Additional observations from a re-analysis of the deposited data

How the results depend on the processing

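The differences of the 4 listed probe sets and the 3 run medians kept their direction in all 85 values computed under the alternatives. None moved by more than the SD between replicates, pooled over the groups, and the choice of the members fixes much of this. For the CDC25A run that SD is a wide limit (0.26 in shscrambled and 0.85 in shERRα, against a difference of 0.70), so few shifts could pass it. With 1 array left out at a time the differences were -0.99 to -0.48 log2 units for the RB1 run, -0.95 to -0.51 for the RBL2 run and 0.32 to 1.16 for the CDC25A run. RBL2 was at -0.51 without shscrambled replicate 2 and RB1 at -0.48 without shscrambled replicate 3. The number of CDC25A probe sets with groups that did not overlap, the listed one included, was 7, and 13 without shERRα replicate 1.

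limma called 0 probe sets at an adjusted p under 0.05 in every setting run, as did the equal-variance test. It called 0 runs as reported, 0 to 1 higher and 0 to 2 lower when an array was left out (1 higher and 1 lower without shERRα replicate 1, 2 lower without shERRα replicate 2), 24 higher and 54 lower with array weights, 25 higher and 132 lower with the mean over the run, and 2 higher among probe sets above the 25th percentile. None of the 3 members' runs was among them, with adjusted p between 0.0511 and 0.894 in limma over the alternatives. The deposited rule gave 695 higher and 1427 lower, and 513 to 906 higher and 775 to 1705 lower when an array was left out (775 without shscrambled replicate 2, 909 without shscrambled replicate 1). Counts rose as well as fell, with 906 higher without shERRα replicate 3 and 1705 lower without shERRα replicate 2. The cause was not tested.

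With a replicate block the rule gave 392 higher and 675 lower, limma again called 0 probe sets and 0 runs, and no run difference moved, since a balanced block leaves it as it is. Same-numbered arrays had correlations of 0.07, 0.05 and 0.08 between their deviations from the group means, each the highest for its array, a hint from the data that the labels do not bear out as pairing.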
